A study of Mus musculus with 32 samples.

Results

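The genes described here encode 6 inhibitors of cyclin-dependent kinases and the 3 D-type cyclins, and they were chosen by symbol: Cdkn2a, Cdkn2b, Cdkn2c, Cdkn2d, Cdkn1a, Cdkn1b, Ccnd1, Ccnd2 and Ccnd3. All 9 were found among the 24028 gene symbols of the RNA-seq tables. RNA-seq was done on mouse embryonic stem cells (mESCs), pluripotent cells of the early embryo kept in culture, of the genotypes WT and Eed-/-, with 1 library each. EED is a subunit of Polycomb repressive complex PRC2, which methylates H3K27. Both libraries carry the line name TT2 in their labels, and the cells were grown with leukemia inhibiting factor on plates coated with gelatin. Eed-/- samples of the other assays in the series carry a different line name, so a difference in line between the libraries cannot be told apart from the genotype if the RNA came from that other line. The mutation in the Eed-/- cells and the number of clones are not given in the sources used here.

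The INK4 proteins, encoded by the Cdkn2 genes, bind CDK4 and CDK6 and keep them from forming active complexes with D-type cyclins. The CIP/KIP proteins p21 (Cdkn1a) and p27 (Cdkn1b) bind cyclin-CDK complexes more broadly, and active cyclin D complexes phosphorylate the retinoblastoma protein RB, which releases E2F factors and lets cells enter S phase. The Ink4a-Arf-Ink4b locus, which holds Cdkn2a and Cdkn2b, is a classical target of Polycomb in differentiated and aging cells, where its silencing holds off senescence. mESCs are known for a short G1 phase and low levels of CDK inhibitors.

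At least 2-fold more RNA was measured for Cdkn2a, Cdkn2b and Ccnd2 in the library labelled Eed-/- than in WT, and no gene of the 9 was at least 2-fold lower. Cdkn2a, which encodes p16INK4a and p19ARF, went from an FPKM of 10.1 to 24.4, Cdkn2b, which encodes p15INK4b, from 0.909 to 2.81, and the cyclin gene Ccnd2 from 6.10 to 15.3. The other CDK inhibitors and the more abundant cyclins Ccnd1 and Ccnd3 stayed under the threshold in either direction. FPKM is a fragment count corrected for transcript length and library size, so levels can be compared between genes. Changes were taken as the difference in log2(FPKM + 1) after quantile normalization, a scale that understates the change of low genes, and 2-fold on this scale was the threshold. Among the 14835 genes whose mean normalized FPKM reached 0.1, 3.8% passed 2-fold upward and 3.98% downward (564 and 590 genes), which is 7.78% in either direction, against 3 upward and 0 downward of the 9, all of which passed the filter. On the FPKM as deposited the split over all genes was 455 higher and 801 lower. The median change of the 9 genes was 0.03, beside 0.01 over all genes tested. With 1 library per genotype no test between genotypes was possible, and no difference below has a replicate check.

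The DNA just upstream of the annotated transcript starts of the 3 higher genes is shown, because CpG sites, the bases at which DNA methylation is set in the assays of this series, differ widely between these starts. Each window holds 250 bases of mm9, 5′ to 3′ on the strand of the gene, with CpG in capitals. The Arf start of Cdkn2a is read from chr4:88940558-88940807, the Ink4a start from chr4:88928097-88928346, Cdkn2b from chr4:88956942-88957191 and Ccnd2 from chr6:127101067-127101316, all on the minus strand.
Cdkn2a, Arf start: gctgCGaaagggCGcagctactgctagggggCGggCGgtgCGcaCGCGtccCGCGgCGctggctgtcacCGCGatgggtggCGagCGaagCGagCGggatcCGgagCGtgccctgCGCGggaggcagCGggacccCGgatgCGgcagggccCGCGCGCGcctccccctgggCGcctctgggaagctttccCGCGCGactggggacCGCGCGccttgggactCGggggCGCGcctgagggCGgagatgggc
Cdkn2a, Ink4a start: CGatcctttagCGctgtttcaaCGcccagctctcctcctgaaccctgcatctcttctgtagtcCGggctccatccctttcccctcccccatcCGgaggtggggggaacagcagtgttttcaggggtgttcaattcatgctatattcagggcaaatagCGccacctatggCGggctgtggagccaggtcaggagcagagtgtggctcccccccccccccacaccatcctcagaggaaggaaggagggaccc
Cdkn2b: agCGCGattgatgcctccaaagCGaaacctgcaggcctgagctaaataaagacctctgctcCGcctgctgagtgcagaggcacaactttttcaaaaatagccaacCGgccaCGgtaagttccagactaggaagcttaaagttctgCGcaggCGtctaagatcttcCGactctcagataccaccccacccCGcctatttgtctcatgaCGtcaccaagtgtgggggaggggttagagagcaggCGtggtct
Ccnd2: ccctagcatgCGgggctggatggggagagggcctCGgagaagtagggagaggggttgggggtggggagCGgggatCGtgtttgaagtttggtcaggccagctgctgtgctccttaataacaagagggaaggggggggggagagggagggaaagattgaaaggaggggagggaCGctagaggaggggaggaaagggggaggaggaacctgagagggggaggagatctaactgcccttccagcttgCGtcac
The Arf window held 38 CpG sites, and 2.19% of the windows of 22228 protein-coding genes, 1 a gene at the start farthest upstream, held at least as many. The Ink4a window, 12.5 kb downstream, held 7 CpG sites, the Cdkn2b window 12 and the Ccnd2 window 6, against a median of 9. The starts of the 3 higher genes thus lay on both sides of the median in CpG number, and among the genes that were not called, Cdkn1b held 28 CpG sites and the upstream start of Cdkn1a held 2. Of the 15 annotated starts of the 9 genes, 1 had a match to TTTNGCGC, an E2F-type motif searched on both strands. Among the windows taken 1 a gene 1.35% had a match, and there the Arf window, which has none, stands for Cdkn2a. The 1 match begins 244 bases before the Ink4a start, in the bases tttagCGc of the Ink4a window, and says nothing of whether a factor binds there.

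The products of Cdkn2a act on both great tumour suppressor pathways, p16INK4a on RB by way of CDK4 and CDK6, and p19ARF on p53 by way of MDM2. The gene (ENSMUSG00000044303.5) spans chr4:88920377-88940557 of mm9 on the minus strand. Its WT level of 10.1 FPKM exceeded that of 66.2% of the genes tested, and its level of 24.4 FPKM with the library labelled Eed-/- exceeded that of 84.0%. The change was 1.36, a rank of 248 from the highest among the 14835 genes. The fragments behind the values, worked out from the step size of low FPKM, were 48 and 104 on the shortest annotated transcript or 54 and 117 on the longest. By counting error alone the change lay between 0.89 and 1.84 (95% exact binomial interval of the split of fragments), so it was above 0, and the lower bound was under the 2-fold threshold. The transcripts from the Ink4a and Arf starts share 575 exon bases, 67.6% of the Ink4a transcript and 64.2% of the Arf transcript. The deposited value is 1 number per gene, so p16INK4a and p19ARF RNA cannot be told apart.

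Cdkn2b encodes p15INK4b, the INK4 inhibitor best known as a target of TGF-beta signalling. It lies 11.6 kb from Cdkn2a (ENSMUSG00000073802.4, chr4:88952198-88956941, minus strand), and it was a low gene in both libraries. The 0.909 FPKM of WT stood for 8 fragments and the 2.81 FPKM of the library labelled Eed-/- for 22. The ratio of deposited FPKM was 3.09, with a counting interval of 1.33 to 8.03. The change on the log2(FPKM + 1) scale was 1.06 and ranked 498 from the highest. On the FPKM as deposited, without quantile normalization, it was 0.996 and so just under the threshold of 1. Cdkn2b was thus the called gene nearest to the threshold, and Cdkn2c, with a change of 0.72, was the nearest below it. Within the libraries Cdkn2b stood at 9.02% of the FPKM of Cdkn2a (WT) and at 11.5% (library labelled Eed-/-).

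**Figure D1:**
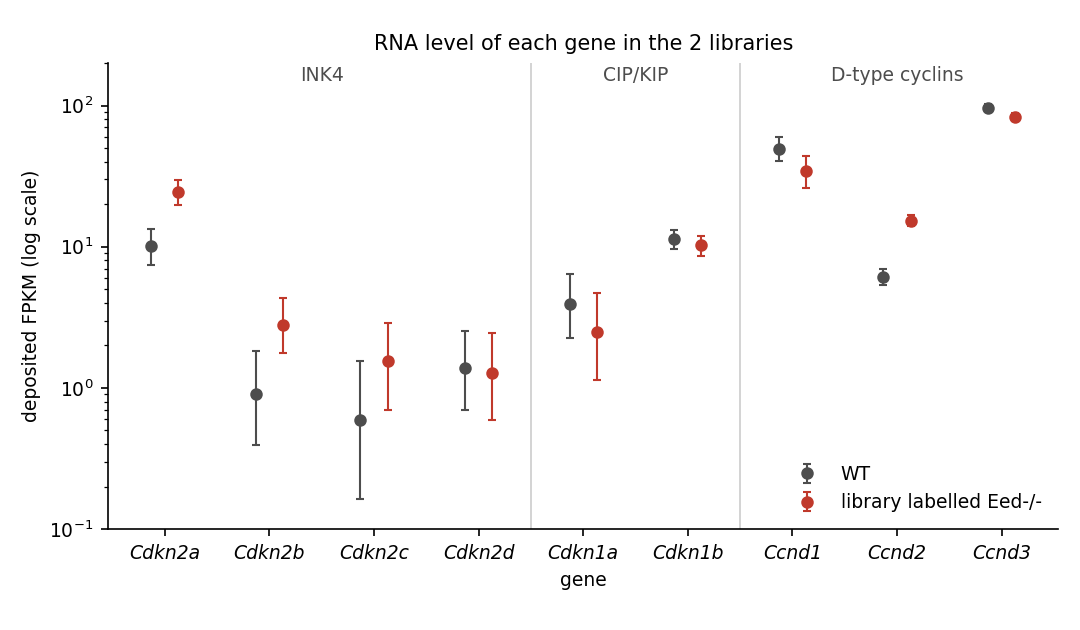
Deposited FPKM (log scale) of each gene in WT (grey) and in the library labelled Eed-/- (red), where bars are exact 95% Poisson intervals of the recovered fragments on the shortest transcript and cover counting error only. The bars of the 2 libraries are apart for Cdkn2a and Ccnd2, higher in red, and for Ccnd3, lower in red on this unnormalized scale, while those of Cdkn2b meet narrowly and those of the other 5 genes overlap.

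The neighbours of the locus were measured in the same way. Mtap, which encodes the methionine salvage enzyme methylthioadenosine phosphorylase and lies on the Cdkn2a side, had 35.3 FPKM in WT against 45.3 in the library labelled Eed-/-, a change of 0.58 that stayed under the threshold. Ifne, an interferon gene farther out on that side, was listed at 0 in WT and at 0.319. On the Cdkn2b side Dmrta1, a DM-domain transcription factor gene, was listed at 0 and 0.0398, and Zfp352, a zinc finger gene, at 0 in both. Dmrta1 and Zfp352 did not pass the filter on low values, and Ifne passed it on a single fragment, so only Mtap of the 4 neighbours had enough RNA for a comparison. The median change over the 854 genes of chromosome 4 was 0.02.

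**Figure D2:**
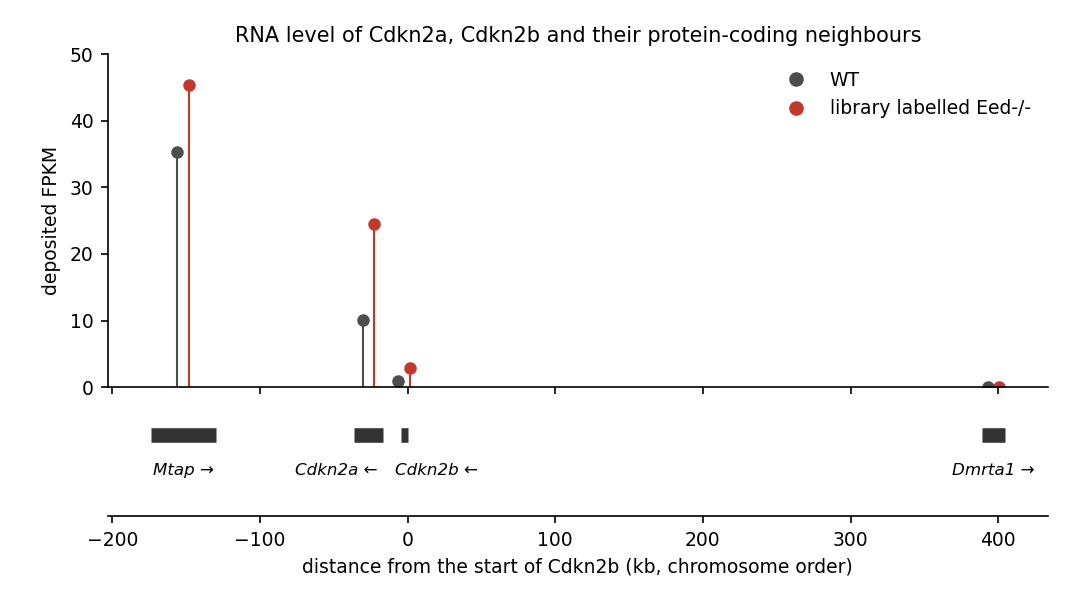
Deposited FPKM of Cdkn2a, Cdkn2b and the nearest protein-coding gene on each side, plotted by distance in kb from the start of Cdkn2b, with WT in grey and the library labelled Eed-/- in red, and with gene bodies and their direction below. Mtap, Cdkn2a and Cdkn2b have the higher value in the library labelled Eed-/-, and Dmrta1 is at or near 0 in both.

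Cdkn2c and Cdkn2d, the other INK4 genes, encode p18INK4c and p19INK4d. Cdkn2c (chr4:109333481-109339794, minus strand) had 0.595 FPKM in WT against 1.56 in the library labelled Eed-/-. Its deposited ratio of 2.63 had a counting interval of 0.706 to 11.2 on the shortest transcript, with 4 and 9 fragments. On the longest, with 10 and 23 fragments, the interval was 1.18 to 6.08, so whether it held 1 depended on the transcript. The change of Cdkn2c, 0.72, was not called. With a pseudocount of 0.1 in place of 1 it passed the threshold. Cdkn2d (chr9:21092907-21095653, minus strand) had 1.39 FPKM in WT against 1.28 in the library labelled Eed-/-, on 11 and 9 fragments, and its change of -0.04 turned to 0.02 with median-ratio scaling. It was listed on 2 lines, of which 1 was at 0 in each library, and mm9 holds a second full-length copy of the transcript at chr9:123836860-123839608, annotated as Gm4694, that differs from it by 1 base. Fragments from these loci cannot be told apart, so the level of Cdkn2d is uncertain. No 50-base stretch of the annotated coding transcripts of Cdkn2a, Cdkn2b or Cdkn2c occurred in another gene's, and the longest exact run shared by Cdkn2a and Cdkn2b was 23 bases.

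Summed over the 4 INK4 genes, the deposited FPKM was 13.0 in WT against 30.1 in the library labelled Eed-/-, and Cdkn2a made up 77.7% and 81.2% of it. Set against the summed FPKM of their targets Cdk4 and Cdk6, INK4 RNA stood at 5.80% in WT against 16.5% in the library labelled Eed-/-. A constant factor per library cancels in these ratios of deposited FPKM, and after quantile normalization they were 6.03% and 16.1%. Cdk4 alone, at 215 and 180 FPKM, was far above all INK4 genes together in both libraries.

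The CIP/KIP genes gave no called change. Cdkn1a, which encodes p21, the inhibitor that p53 induces after DNA damage (chr17:29227924-29237667, plus strand), had 3.91 FPKM in WT against 2.51 in the library labelled Eed-/-. Its change of -0.41 had a counting interval of -1.36 to 0.54 on the shortest transcript, with 16 and 9 fragments, which holds 0. Cdkn1b, which encodes p27, an inhibitor that restrains proliferation in many tissues (chr6:134870419-134875531, plus strand), had an FPKM of 11.3 and 10.2. Its change was 0.01 (-0.13 on the FPKM as deposited), with an interval of -0.29 to 0.30, so a 2-fold change in either direction lay outside counting error. In WT the FPKM of Cdkn2a was 0.891 times that of Cdkn1b, with intervals that overlapped, and in the library labelled Eed-/- it was 2.39 times as high.

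Ccnd3 and Ccnd1 had the highest FPKM of the 9 genes in both libraries, and the 3 D-type cyclins did not move together. Ccnd2 (ENSMUSG00000000184.9, chr6:127075797-127101066, minus strand), whose product is the D-type cyclin of B cells, ovarian granulosa cells and neural progenitors, had 6.10 FPKM in WT against 15.3 in the library labelled Eed-/-, on 241 and 540 fragments. The deposited ratio was 2.52, with a counting interval of 2.16 to 2.94, the narrowest of the 3 higher genes. The change of 1.35 ranked 258 from the highest, and its interval of 1.15 to 1.55 lay wholly above the threshold. Ccnd1 (chr7:152115836-152125774, minus strand), the D-type cyclin most tied to mitogen signals, had an FPKM of 49.4 and 34.2 and a change of -0.32, whose counting interval held 0 on the shortest transcript (-0.80 to 0.12) but not on the longest (-0.45 to -0.19). Ccnd3 (chr17:47642000-47736632, plus strand), which serves lymphoid cells in particular, had an FPKM of 96.6 and 83.3 and a change of 0.03 that turned to -0.21 on the FPKM as deposited and to -0.05 with median-ratio scaling.

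On the FPKM as deposited, summed D-type cyclin RNA was 152 for WT against 133 for the other library. That scale ran lower over all genes tested, with a median change of -0.09, so the sums alone do not show a fall. Relative to the summed FPKM of Cdk4 and Cdk6, D-type cyclin RNA went from 67.9% (WT) to 72.8% (library labelled Eed-/-). After quantile normalization these ratios were 68.2% and 72.4%. Ccnd2 made up 4.01% of the D-type cyclin sum in WT against 11.5% in the library labelled Eed-/-. For Ccnd1 the share was 32.5% and 25.8%, and for Ccnd3 63.5% and 62.7%. Ccnd2 stood at 12.3% of the FPKM of Ccnd1 in WT and at 44.8% in the other library. Ccnd3 was therefore the leading D-type cyclin RNA in both libraries, and the order Ccnd3, Ccnd1, Ccnd2 was the same in both. A processed copy, Ccnd3-ps on chromosome 4, covers 86.7% of the Ccnd3 transcript at 95.5% identity, so part of the Ccnd3 value may be shared. The libraries were strand-specific, but whether the quantification used strand is not given in the sources used here, and at their ends Ccnd1 overlaps Oraov1 (3.34 and 2.35 FPKM) and Ccnd3 overlaps Bysl (36.2 and 35.1 FPKM) on the opposite strand.

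**Figure D3:**
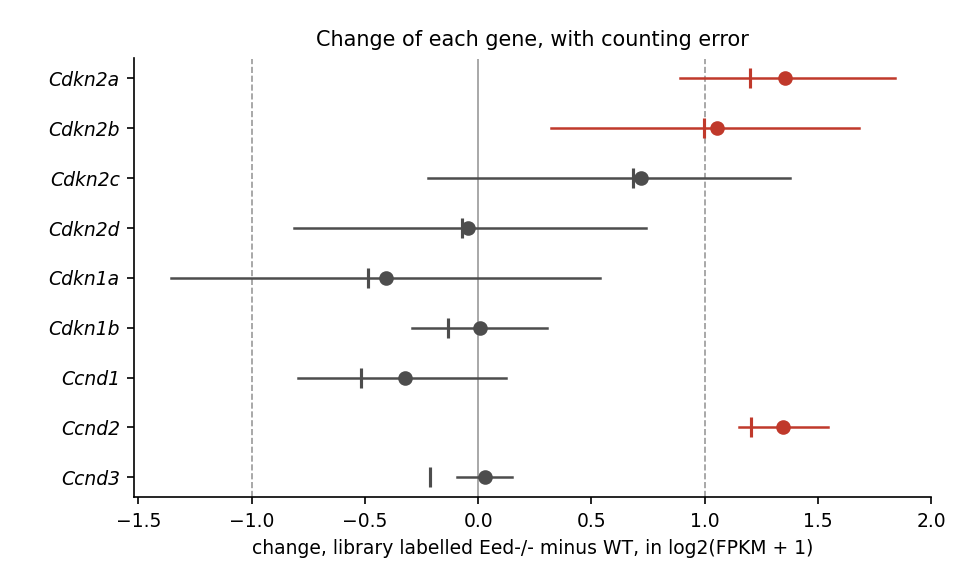
Change of each gene in log2(FPKM + 1) after quantile normalization (dots), with 95% intervals from counting error (lines, the wider of the shortest and the longest transcript) and the change on the FPKM as deposited (short vertical marks), where dashed lines mark 2-fold and red marks the genes at least 2-fold higher. The line of Ccnd2 lies wholly past 2-fold, those of Cdkn2a and Cdkn2b cross it but stay above 0, and the other 6 dots lie between the dashed lines.

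Ordered by FPKM, WT ran Ccnd3, Ccnd1, Cdkn1b, Cdkn2a, Ccnd2, Cdkn1a, Cdkn2d, Cdkn2b and Cdkn2c. The Poisson intervals on the shortest transcript overlapped for Cdkn1b and Cdkn2a, for Ccnd2 and Cdkn1a, and for all neighbours from Cdkn1a down. In the library labelled Eed-/- the order was Ccnd3, Ccnd1, Cdkn2a, Ccnd2, Cdkn1b, Cdkn2b, Cdkn1a, Cdkn2c and Cdkn2d. There, again on the shortest transcript, Ccnd1 and Cdkn2a overlapped, and so did all neighbours from Cdkn2b down. Cdkn1a in WT had 16 fragments on its shortest transcript and 49 on its longest. Ccnd1 in the library labelled Eed-/- had 63 and 778. Intervals on the longest transcript would be narrower, so the overlaps of Cdkn1a and Ccnd1 may not hold there. Cdkn2a and Ccnd2 both stood above Cdkn1b in the library labelled Eed-/- and below it in WT.

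**Figure D4:**
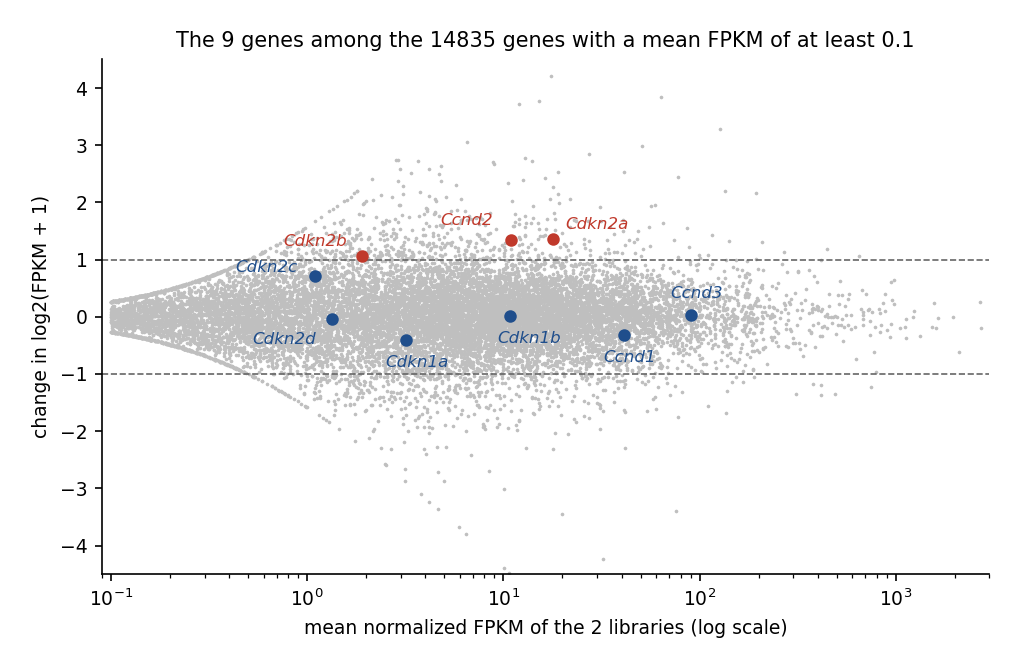
Change in log2(FPKM + 1) of the genes tested (grey) against their mean normalized FPKM (log scale), with the 9 genes named, in red where at least 2-fold higher (dashed lines), and with 67 genes outside the axes not drawn. Cdkn2a and Ccnd2 lie at a mean FPKM above 10, Cdkn2b lies near 2, where the scale narrows the possible change, and the other 6 genes lie inside the cloud.

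The targeted gene Eed had 63.0 FPKM in WT against 70.9 in the library labelled Eed-/-, a change of 0.40, so its RNA was not lower and does not check the label. The depth recovered from low values was about 7170000 fragments (WT) and 6380000 fragments (library labelled Eed-/-). As groups, genes of chromosomes 1 and 8 had median changes of -0.29 and -0.38 and genes of chromosome X one of 0.46, and of the 6 genes tested on chromosome Y, whose median was 1.77, 83.3% were at least 2-fold higher. None of the 9 genes lies on these, and the medians of their own chromosomes ran from -0.01 to 0.04. Of 9 pluripotency markers all were expressed, with a summed FPKM of 1471 in WT against 1658 in the library labelled Eed-/-, and Zfp42 rose. Of 9 fibroblast markers, which would show feeder cells, Dcn and Twist2 were at 0 in both libraries, Col1a1 was at 0.460 and 0.137, and Thy1 rose from 0.976 to 6.97, beside sums over the list of 2.15 and 7.52. Summed FPKM was 2.41 and 5.72 for 9 primitive endoderm markers, none of which was called, with Sox17 at 0 in WT and Foxa2 at 0 in the library labelled Eed-/-. All 8 of these markers that passed the filter had changes above 0, with a median of 0.41, and Foxa2 did not pass it. For 9 trophoblast markers the summed FPKM was 61.1 and 20.8, with Elf5 at 0 in both, Hand1 at 0 in WT, and Eomes higher but Krt18 and Tfap2c lower by at least 2-fold. For 6 neural markers it was 108 and 95.4, with Ncam1 higher. The part of other cell types or of the line in the changes of Cdkn2a, Cdkn2b and Ccnd2 was not tested, and in bulk RNA more cells with a transcript cannot be told apart from more RNA per cell.

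The kinases that these proteins act on were next in line. Of 7 genes for cell cycle kinases and the CDK-activating kinase, 1 was lower and none higher, beside 3.98% and 3.8% over all genes tested. Cdk6 fell from an FPKM of 9.24 to 2.77, a change of -1.33 with a counting interval of -1.72 to -0.92. Cdk4, its close relative, had 215 and 180 FPKM and a change of -0.01, and Cdk2, the partner of cyclins E and A, had 29.3 and 30.4 FPKM and a change of 0.26. Cdk6 thus stood at 4.30% of Cdk4 in WT against 1.54% in the library labelled Eed-/-. Of the remaining CDK inhibitors, Cdkn1c, the imprinted gene for p57, had 5.69 and 4.42 FPKM and a change of -0.18, and Cdkn3, a phosphatase gene, had 3.92 and 7.29 FPKM and a change of 0.87, both under the threshold.

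The counts of called genes downstream of the kinases are to be read beside 3.8% higher and 3.98% lower over all genes tested. The RB family genes Rb1 (1.96 and 2.06 FPKM), Rbl1 (5.71 and 4.51) and Rbl2 (1.80 and 1.05) had changes of 0.11, -0.16 and -0.40. Of 10 E2F and DP genes, Tfdp1, the main dimerization partner of E2F, fell by 1.07, from 53.5 to 21.4 FPKM, and the others stayed under the threshold. Its chromosome is 8, where the median of all genes was below 0, as given above. Of 16 E2F-driven replication genes none was called, and the change of largest size was that of the replication licensing gene Cdt1, at -0.94, also on chromosome 8. The 6 subunits of the MCM helicase had changes from -0.73 to 0.02, with a median of -0.49. Their summed deposited FPKM was 1004 in WT against 598 in the library labelled Eed-/-. The deposited scale ran lower over all genes tested, with a median change of -0.09, so these sums overstate the difference. Some of the MCM genes lie on chromosomes 1 and 8, where the median of all genes was below 0, and some on other chromosomes. None of the 9 other cyclins was called, and Ccne2, the gene of a cyclin E, had the change of largest size at -0.64.

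Among 9 repressors of the Ink4a-Arf locus, 3 were higher and 1 lower, beside 3.8% and 3.98% over all genes tested. Bmi1, a PRC1 subunit whose loss de-represses the locus in mice, rose from 1.14 to 7.35 FPKM, a change of 2.05. Cbx8, a chromodomain subunit of PRC1, rose from 1.82 to 6.89 (1.59), and the T-box gene Tbx3 rose from 6.79 to 29.5 (2.14). Id1, an inhibitor of basic helix-loop-helix factors, fell from 76.5 to 32.0, a change of -1.02 with a counting interval of -1.29 to -0.76. The other 5 stayed under the threshold. Kdm2b, a CpG-binding histone demethylase, had 13.9 and 24.0 FPKM and a change of 0.91, Twist1 1.24 and 2.88 FPKM and 0.85, and Tbx2 0.123 and 0.183 FPKM and 0.06. Cbx7, the chromodomain subunit most abundant in mESCs, had 24.0 and 12.7 FPKM and a change of -0.71, and Zbtb7a 2.85 and 1.79 FPKM and -0.40. In these libraries the higher values of Cdkn2a and Cdkn2b thus stood beside higher RNA of Bmi1, Cbx8 and Tbx3, and beside lower RNA of Id1. The repressors did not move as 1 group, since 6 of the 9 had changes above 0 and 3, with Cbx7 among them, below 0.

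Of 11 genes of the p53 axis, on which p19ARF acts, 1 was higher and 1 lower. Pmaip1, which encodes the BH3-only protein NOXA, rose from 9.73 to 24.0 FPKM, a change of 1.38. Gadd45a, a growth arrest and stress gene, fell from 43.1 to 10.8 FPKM, a change of -1.73. The median of this list was -0.18, and 9 of the 11 had changes below 0. Of 10 genes for the turnover of p27, p21 and D-type cyclins none was called, and the largest change in size was that of Fbxo31, at -0.69, a ubiquitin ligase gene that targets cyclin D1 and lies on chromosome 8. None of 7 MYC and immediate early genes was called, and Junb, also on chromosome 8, had the change of largest size at -0.73. Pooled over these lists, 4 of 84 genes were higher and 4 lower, beside 3.8% and 3.98% over all genes tested. Of the 4 higher genes, 3 were repressors of the Ink4a-Arf locus. The lists were chosen with earlier results of these data known, so this is a description only.

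**Figure D5:**
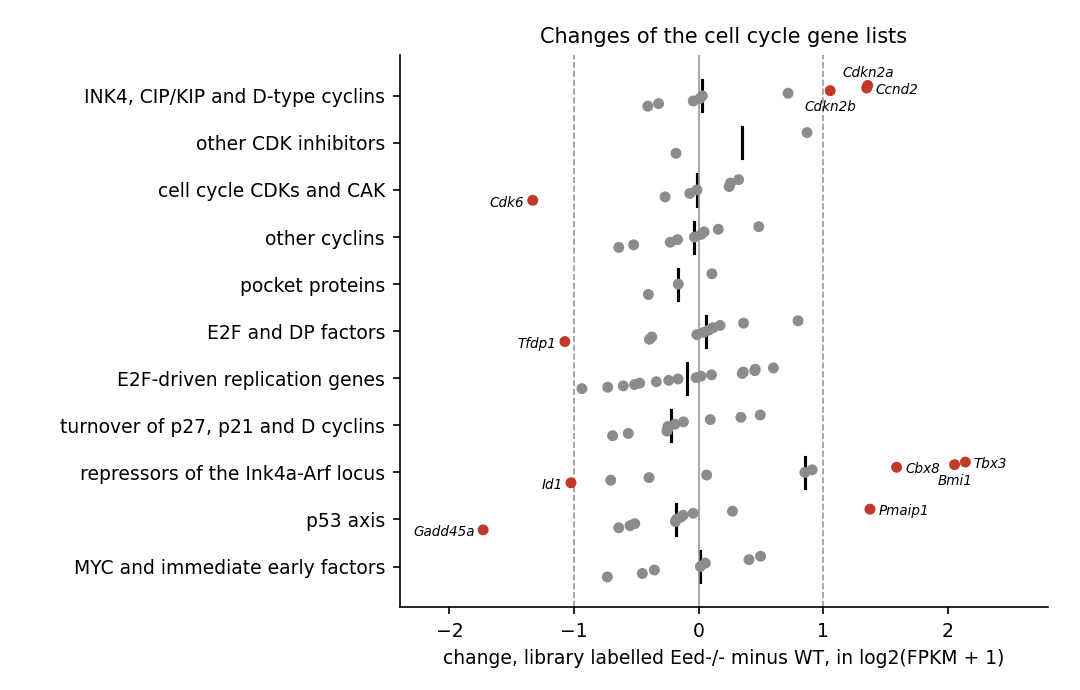
Changes in log2(FPKM + 1) of the 9 genes and of the genes of each cell cycle list, 1 dot a gene, with black bars at list medians, dashed lines at 2-fold, and genes past it in red and named. The repressors of the Ink4a-Arf locus have a median of 0.85 and 3 genes past 2-fold upward, and the medians of the other lists lie between -0.22 and 0.34.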

How the data were processed

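RNA-seq of mESCs was analysed for 2 of the 32 samples of the series, and the DNA methylation, chromatin and 4C samples were not analysed here. Ribosomal RNA was removed and strand-specific libraries were made. The authors mapped reads to mm9 and deposited FPKM per gene symbol. The submitters' processing notes name Bowtie2 2.2.2, TopHat2 2.0.11 and Cufflinks 2.2.1, and the annotation is not given in the sources used here. The authors plotted quantile-normalized, log-transformed FPKM, but the deposited FPKM of the libraries is not quantile-normalized. Read counts were not used here.

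Where a symbol had several lines (268 symbols), their FPKM was added up. After quantile normalization, changes were taken in log2(FPKM + 1) over genes whose mean reached 0.1. The pseudocount limits how far low genes can move. Fragments were recovered from low values of 4754 protein-coding genes with 1 transcript, with 180 bases taken off each length (80.9% of 740 values in WT and 82.8% of 838 in the library labelled Eed-/- came within 0.1 of whole fragments). Values at several transcripts are approximate. Intervals (95%, exact binomial or Poisson) cover counting error only, with each fragment taken as independent. PCR copies are not independent molecules, so the intervals may be too narrow even for that. Positions and starts came from GENCODE vM1 on mm9, and copies (at least 80% of a transcript at 95% identity) from minimap2 2.31. Named genes were all 9 genes, Eed, the locus neighbours, Cdk2, Cdk4, Cdk6, all other CDK inhibitors, RB family genes and repressors of the locus and, of each other pathway list, those past 2-fold or else the gene with the largest change. Cell type markers were named after their values were seen, for being past 2-fold or at or near 0. The genes, lists and rules were chosen with earlier results of these data known. The steps were tested on simulated data. Alternatives were the deposited FPKM, median-ratio scaling (genes whose mean FPKM reached 2), quantile normalization without chromosomes 1, 8, X and Y or without small non-coding RNAs, pseudocounts of 0.1 and 0.01, no filter or a minimum mean FPKM of 1, leaving out symbols with several lines, and a 3-fold threshold. The software was Python 3.11.15 with pandas 2.3.3, numpy 2.4.6, matplotlib 3.10.9 and scipy 1.17.1.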

Additional observations from a re-analysis of the deposited data

How the results depend on the processing

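Cdkn2a and Ccnd2 passed 2-fold upward under every alternative but the 3-fold threshold, under which 0 of the 9 genes was called, and their changes ran from 1.199 to 1.444 and from 1.203 to 1.491. The change of Cdkn2b was 0.996 on the FPKM as deposited, where 2 of the 9 genes were called, and 1.71 with a pseudocount of 0.01. Cdkn2c passed 2-fold only with pseudocounts of 0.1 and 0.01 (1.44 with the latter), which gave 4 called genes. The signs of Cdkn2d, Cdkn1b and Ccnd3 differed between scalings, and Ccnd3 stood at -0.21 on the FPKM as deposited. Over all genes, a pseudocount of 0.1 gave 1694 higher and 1778 lower genes, 0.01 gave 1914 and 1989, and the 3-fold threshold 152 and 137. The median of the 9 genes was 0.37 without Cdkn2d, the one listed on 2 lines, since 8 genes then remained. No paired analysis was possible because each genotype has 1 library. The spread between cultures is unknown, and low depth limits what can be said of Cdkn2b, Cdkn2c, Cdkn2d and Cdkn1a.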
